A study of Danio rerio with 20 samples.

Results

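The interaction of glo1 loss and aldh3a1 loss was measured in all 20 zebrafish larva libraries of the series, 5 from each of 4 genotypes, across 22234 genes. It compares the double knockout's log2 change from wild type with what the 2 single knockouts' log2 changes add up to. A value of 0 means that the losses added up. A positive value means that the double knockout lay above that sum, and a negative value that it lay below it. All fish carried Tg(fli1:EGFP), a transgene in which the fli1 promoter, active in blood vessel endothelium, drives a green fluorescent protein. The groups were DKO, which lacked both genes and was made with CRISPR/Cas9, GLO1KO, which lacked glo1, ALDH3A1KO, which lacked aldh3a1, and WT, which kept both. The labels give larvae as the source and do not give their age, the number pooled per library or their parents. Nothing says that the libraries came from separate clutches, so the p-values rest on differences among these 5 libraries per genotype, and these may be technical.

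Glo1 is the first enzyme of the glyoxalase system, which uses glutathione to remove methylglyoxal, a reactive dicarbonyl that forms as a by-product of glycolysis. Methylglyoxal modifies arginine residues of proteins, and the adduct MG-H1 is a main product. Aldh3a1 is an aldehyde dehydrogenase, which oxidises aldehydes to acids, and such enzymes are another route by which methylglyoxal can be removed. The title of the series names small blood vessels, glucose metabolism and the proteasome, so those pathways were among the 38 gene lists described.

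The libraries held 35092716 to 37190519 counts assigned to genes, and values are given as CPM, which are counts scaled to library size. Glo1 (ENSDARG00000068978) had 3.38, 3.95, 4.39, 4.42 and 5.35 CPM in DKO, 4.22, 3.62, 3.56, 3.61 and 3.28 CPM in GLO1KO, 77.2, 74.9, 77.7, 81.7 and 81.1 CPM in ALDH3A1KO, and 66.3, 62.2, 63.6, 71.4 and 69.6 CPM in WT. The groups that lacked glo1 did not overlap those that kept it, and glo1 itself had an interaction of -0.01 (SE 0.12, adjusted p = 0.976). The level of aldh3a1 was not analysed here, so the ALDH3A1KO and DKO labels were not checked against that gene. Mitochondrially encoded genes took 3.47% ± 0.156 of counts in DKO, 3.27% ± 0.0831 in GLO1KO, 3.93% ± 0.230 in ALDH3A1KO and 2.88% ± 0.232 in WT (SD, n = 5 each). Their part in the results was not tested.

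Among the genes called for the interaction, the double knockout was mostly less changed than the sum of the single knockouts. The interaction passed an adjusted p of 0.05 in edgeR's quasi-likelihood test for 7905 genes, 35.6% of those tested, with 4157 above the sum (18.7%) and 3748 below it (16.9%). Of these 7905 genes, 7046 (89.1%) lay on the same side of WT as the sum but closer to WT. Another 818 (10.3%) lay on the other side of WT, and 41 (0.519%) lay farther from WT than the sum. These genes were picked by the gap between DKO and the sum, so these shares and the medians that follow are partly set by that choice. The same shares over all tested genes were not computed. Over the 4157 genes above the sum, the median log2 change was -0.66 in DKO, -0.50 in GLO1KO and -1.04 in ALDH3A1KO, each against WT, where the median sum was -1.56. Over the 3748 genes below the sum, the median change was 0.27 in DKO, 0.23 in GLO1KO and 0.48 in ALDH3A1KO, where the median sum was 0.71. The same WT libraries enter the change in DKO once and the sum through both single knockouts, so a value particular to the WT libraries and a departure from additivity cannot be told apart. The median interaction over all tested genes was 0.02, with an interquartile range from -0.26 to 0.45.

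Departures above the sum were larger than those below it. At an interaction of at least 1 on the log2 scale, 1617 genes (7.27%) lay above the sum and 223 genes (1%) lay below it. The genes above the sum had a median level of 6.22 CPM and those below it 30.9 CPM, against 9.02 CPM over all tested genes. On the linear CPM scale, where the sum is of CPM differences and not of fold changes, 9 of the 7905 genes (0.114%) had an interaction of the opposite sign. The most frequent pattern among the 7905 genes was lower in DKO and in both single knockouts with DKO above the sum (2421 genes). The next was higher in all 3 knockouts with DKO below the sum (1911 genes).

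The effect of losing glo1 depended on whether aldh3a1 was present. With aldh3a1 lost (DKO against ALDH3A1KO), 5039 genes passed the test (22.7%), 2458 of them higher (11.1%) and 2581 lower (11.6%). With aldh3a1 kept (GLO1KO against WT), 7286 genes passed (32.8%), 3253 of them higher (14.6%) and 4033 lower (18.1%). These comparisons share no library. Of the 1938 genes that passed in both, 1328 changed in opposite directions and 610 in the same direction. They were 38.5% of the genes called with aldh3a1 lost and 26.6% of those called with aldh3a1 kept. Across all 22234 genes, the effects of glo1 loss with aldh3a1 lost and kept had a Pearson r of -0.04 and a Spearman rho of -0.17. Genes are not independent replicates, and all values share the scaling between the 20 libraries.

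The effect of losing aldh3a1 kept its direction but was smaller in fish without glo1. With glo1 lost (DKO against GLO1KO), 2521 genes passed (11.3%), 1004 of them higher (4.52%) and 1517 lower (6.82%). This count was 1331 without GLO1KO replicate 5, 1302 without DKO replicate 4 and 1451 without DKO replicate 5. With glo1 kept (ALDH3A1KO against WT), 13637 genes passed (61.3%), 6527 of them higher (29.4%) and 7110 lower (32%). Of the 2061 genes that passed in both, 1968 changed in the same direction and 93 in opposite directions. They were 81.8% of the genes called with glo1 lost and 15.1% of those called with glo1 kept. Across all 22234 genes, the effects with glo1 lost and kept had a Pearson r of 0.50 and a Spearman rho of 0.56, and their SDs over genes were 0.391 with glo1 lost and 0.760 with glo1 kept on the log2 scale. DKO against WT gave 11190 genes (50.3%), 5319 of them higher (23.9%) and 5871 lower (26.4%).

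**Figure D1:**
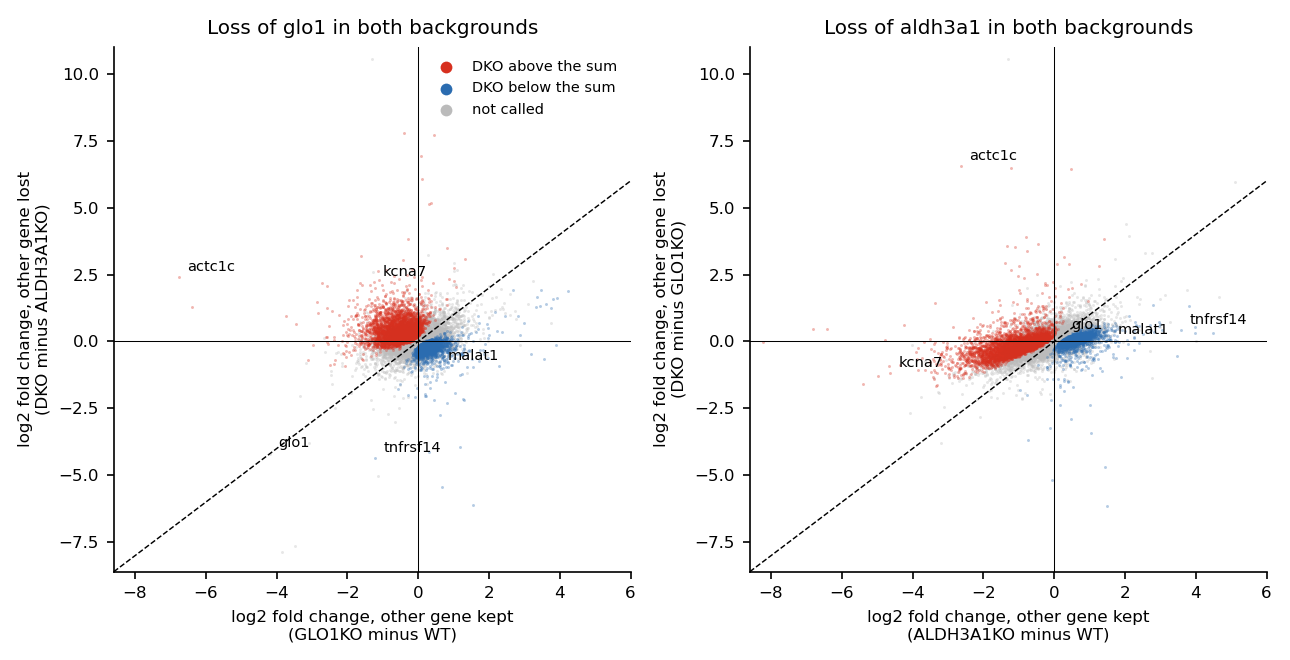
Each point is 1 of the 22234 tested genes, with the log2 fold change for the loss of glo1 (left) or aldh3a1 (right) in fish that lacked the other gene on the vertical axis and in fish that kept it on the horizontal axis; red points had DKO above the sum of the single knockouts (4157 genes), blue points had DKO below it (3748), grey points were not called, and the dashed diagonal marks equal effects. The interaction is the vertical minus the horizontal value, so red points lie above the diagonal and blue points below it by definition. On the right both lie along a slope flatter than the diagonal, which is partly set by that choice.

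Most genes of the intestine and liver fell in both single knockouts, most exocrine pancreas genes fell in ALDH3A1KO, and most of the intestine and liver genes were called above the sum. Each list is described by the number of its tested members called in each direction and by its median, beside 18.7% called above and 16.9% called below the sum and a median interaction of 0.02 over all tested genes. Fewer cells of a type and less RNA per cell cannot be told apart in RNA from larvae. Of 50 enterocyte genes, which serve absorption and lipid packaging in the gut, 34 lay above the sum and 0 below it, with a median interaction of 1.35. Their median log2 change against WT was -1.14 in DKO, -0.83 in GLO1KO and -1.62 in ALDH3A1KO, and the median sum was -2.55. Of 50 liver and plasma protein genes, 35 lay above the sum and 0 below it, with a median interaction of 1.12. Their median change was -1.27 in DKO, -0.94 in GLO1KO and -1.48 in ALDH3A1KO, and the median sum was -2.45. Of 28 exocrine pancreas genes, which encode digestive enzymes, 7 lay above the sum and 1 below it, a share above the sum of 25% against 18.7% over all tested genes, with a median interaction of 1.02 and a median sum of -2.22. Their median change was -1.18 in DKO, -0.43 in GLO1KO and -1.78 in ALDH3A1KO. The WT libraries spread widely, with list medians against the WT mean from -0.491 to 0.45 (enterocyte), -0.549 to 0.675 (liver) and -0.543 to 0.785 (exocrine). Exocrine medians ran from -3.009 to -1.124 in ALDH3A1KO. With a library left out, the median interaction was 1.25 to 1.44 for enterocyte, 0.88 to 1.26 for liver and 0.76 to 1.19 for exocrine genes.

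Fewer liver and enterocyte genes were called lower for a loss when the other gene was already lost. In fish without aldh3a1, loss of glo1 raised 3 of 50 liver genes and 8 of 50 enterocyte genes and lowered 0 of either list (11.1% raised and 11.6% lowered over all tested genes). In fish with aldh3a1, it lowered 39 of the 50 liver genes and 32 of the 50 enterocyte genes (18.1% over all tested genes). Loss of aldh3a1 lowered 5 liver and 2 enterocyte genes in fish without glo1, near the share over all tested genes (6.82%). In fish with glo1, it lowered 45 liver and 40 enterocyte genes (32% over all tested genes). The median change for loss of aldh3a1 without glo1 was -0.35 over liver and -0.26 over enterocyte genes, against -0.002 over all tested genes. Dgat2 catalyses the last step of triglyceride synthesis. It had 0.750, 0.894, 0.445, 0.865 and 0.439 CPM in DKO, 0.611, 1.29, 0.827, 0.560 and 0.766 CPM in GLO1KO, 0.226, 0.365, 0.330, 0.437 and 0.270 CPM in ALDH3A1KO, and 4.37, 2.29, 1.52, 3.22 and 2.13 CPM in WT. Every WT library was above every knockout library, and every DKO library was above every ALDH3A1KO library and overlapped GLO1KO. The interaction of dgat2 was 2.79 (SE 0.44, adjusted p = 6.21e-05), and the product of the single changes is 0.0976 CPM.

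Serpinf2b encodes alpha-2-antiplasmin, a plasma inhibitor of clot breakdown made by the liver. It had 4.76, 4.01, 4.93, 4.98 and 3.89 CPM in DKO, 6.28, 6.62, 5.07, 6.04 and 5.99 CPM in GLO1KO, 2.89, 3.71, 2.61, 4.23 and 3.27 CPM in ALDH3A1KO, and 20.6, 12.4, 8.84, 12.9 and 11.9 CPM in WT. DKO lay below every GLO1KO library and overlapped ALDH3A1KO, and no knockout library reached the WT range. Its interaction was 1.59 (SE 0.24, adjusted p = 3.97e-05), and the product of the single changes is 1.503 CPM. A1cf, an RNA-binding cofactor of apolipoprotein B mRNA editing in mammals, averaged 1.80 ± 0.876 CPM in DKO, 2.05 ± 1.03 CPM in GLO1KO, 1.05 ± 0.529 CPM in ALDH3A1KO and 8.75 ± 3.82 CPM in WT (SD, n = 5 each). Its interaction was 2.86 (SE 0.59, adjusted p = 0.00143). Pla2g1b, the pancreatic phospholipase A2, averaged 0.277 ± 0.294 CPM in DKO and 0.0401 ± 0.0477 CPM in ALDH3A1KO, so its interaction of 3.60 (SE 1.07, adjusted p = 0.0115) rests on low counts. The amylase gene amy2al1 went the other way, with 2.24 ± 0.273 CPM in DKO, 2.19 ± 0.469 CPM in GLO1KO, 2.89 ± 0.262 CPM in ALDH3A1KO and 1.64 ± 0.392 CPM in WT, and an interaction of -0.79 (SE 0.25, adjusted p = 0.0168).

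**Figure D2:**
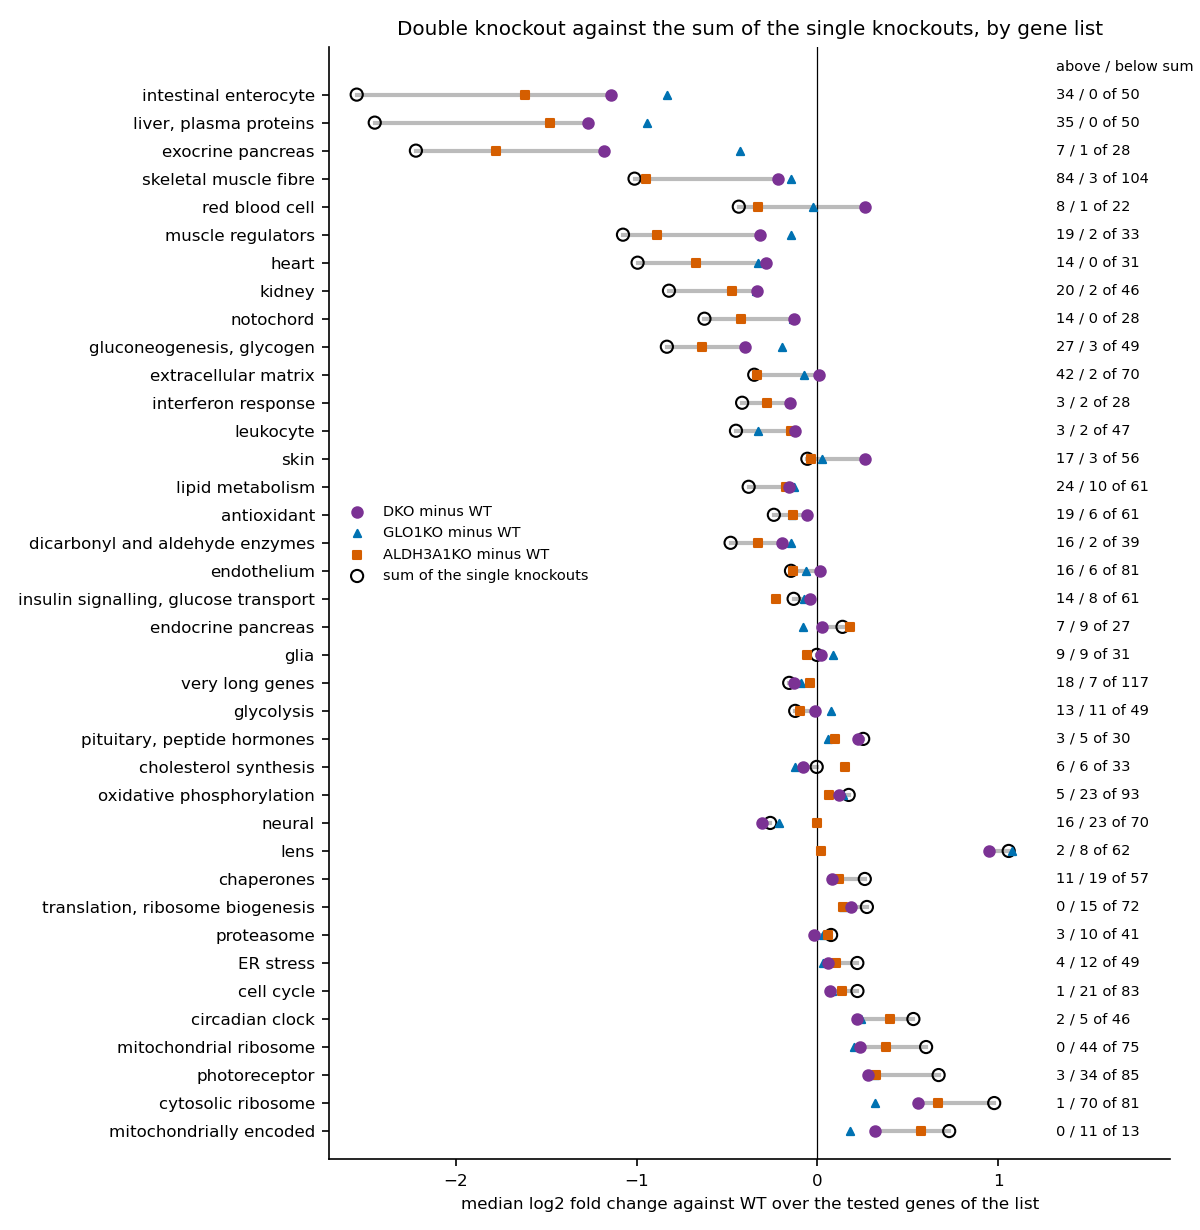
For each of the 38 gene lists, the median log2 fold change against WT over its tested genes is shown for DKO (filled circle), GLO1KO (triangle) and ALDH3A1KO (square), with an open circle at the median of the sum of the single knockouts; numbers at the right give the genes called above and below the sum. Lists run from the highest median interaction (enterocyte, 1.35) to the lowest (mitochondrially encoded, -0.47), and the DKO point lay closer to 0 than the sum in 34 of the 38 lists.

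Skeletal muscle genes fell with the loss of aldh3a1 and lay nearer WT when glo1 was lost as well. Of 104 genes of the muscle fibre, 84 lay above the sum and 3 below it, with a median interaction of 0.77. Their median log2 change was -0.22 in DKO, -0.15 in GLO1KO and -0.95 in ALDH3A1KO, and the median sum was -1.01. Loss of glo1 raised 83 of the 104 genes and lowered 1 in fish without aldh3a1 (11.1% and 11.6% over all tested genes), against 10 raised and 21 lowered in fish with aldh3a1 (14.6% and 18.1%). Loss of aldh3a1 raised 3 and lowered 11 in fish without glo1 (4.52% and 6.82% over all tested genes), against 3 raised and 93 lowered in fish with glo1 (29.4% and 32%). By library, the median of the list lay between -0.39 and 0.05 in DKO, between -0.17 and -0.02 in GLO1KO, between -1.26 and -0.75 in ALDH3A1KO and between -0.31 and 0.13 in WT, on the log2 scale against the WT mean. ALDH3A1KO did not overlap the other groups, and DKO, GLO1KO and WT overlapped. WT replicate 5 was the lowest WT library at -0.31, against 0.03 to 0.13 in the other 4.

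Actc1c, named as an alpha-actin of striated muscle, had the largest interaction among the genes ranked. The ranking took called genes at 5 CPM or more in the highest genotype with a symbol other than a clone name. Actc1c had 80.3, 56.4, 95.6, 86.0 and 62.8 CPM in DKO, 1.22, 0.898, 0.513, 0.643 and 0.793 CPM in GLO1KO, 13.9, 16.8, 9.31, 11.9 and 19.8 CPM in ALDH3A1KO, and 108, 107, 93.8, 99.5 and 36.6 CPM in WT. DKO overlapped WT, while every GLO1KO and every ALDH3A1KO library lay below both. The product of the single changes is 0.131 CPM, and the interaction was 9.17 (SE 0.47, adjusted p = 8.63e-09). Loss of glo1 raised actc1c by 2.41 in fish without aldh3a1 (SE 0.27, adjusted p = 1.70e-05), while in fish with aldh3a1 it fell by 6.76 (SE 0.37, adjusted p = 1.33e-08). A separate ID named acte1, a symbol that the RefSeq table gives to actc1c as well, averaged 65.6 CPM in DKO, 86.3 CPM in GLO1KO, 27.0 CPM in ALDH3A1KO and 87.8 CPM in WT, with an interaction of 1.30 (SE 0.21), and was picked after its values were seen. Muscle actins have closely similar sequences, so which copy the reads of actc1c came from is uncertain.

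Other genes of the sarcomere and of muscle excitation were among the 10 largest departures above the sum in the ranking used for actc1c. Kcna7 encodes a voltage-gated potassium channel of muscle. It had 1.82, 1.21, 2.23, 1.91 and 1.23 CPM in DKO, 4.95, 2.92, 3.05, 3.41 and 4.59 CPM in GLO1KO, 0.849, 0.309, 0.0275, 0.233 and 0.390 CPM in ALDH3A1KO, and 12.1, 10.3, 9.001, 8.27 and 5.47 CPM in WT. The 4 genotypes did not overlap in kcna7, with DKO between the single knockouts, and the interaction was 3.46 (SE 0.49, adjusted p = 4.14e-05). Myom1 (ENSDARG00000104836), a protein of the sarcomere's M-band, had 23.4, 17.8, 30.0, 15.4 and 17.6 CPM in DKO, 62.7, 38.9, 32.4, 37.0 and 49.8 CPM in GLO1KO, 12.8, 9.12, 5.41, 6.24 and 7.26 CPM in ALDH3A1KO, and 150.4, 146, 124, 110.1 and 60.6 CPM in WT. Only GLO1KO and WT overlapped, DKO again lay between the single knockouts, and the interaction was 2.77 (SE 0.40, adjusted p = 0.00011). Another ID under the symbol myom1 had 332 CPM in DKO, 346 CPM in GLO1KO, 203 CPM in ALDH3A1KO and 359 CPM in WT, with an interaction of 0.76.

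Obscnb, a giant protein that links the sarcomere to the sarcoplasmic reticulum, averaged 5.55 ± 2.01 CPM in DKO, 8.81 ± 1.15 CPM in GLO1KO, 2.06 ± 0.393 CPM in ALDH3A1KO and 22.2 ± 7.51 CPM in WT (SD, n = 5 each). Its interaction was 2.76 (SE 0.35, adjusted p = 2.43e-05). Cdh15, the M-cadherin of muscle precursors, had an interaction of 3.23 (SE 0.50, adjusted p = 7.34e-05) and averaged 1.298 ± 0.497 CPM in DKO, 2.04 ± 0.913 CPM in GLO1KO, 0.347 ± 0.205 CPM in ALDH3A1KO and 5.18 ± 1.71 CPM in WT. Mylk4 (ENSDARG00000055412), of the myosin light chain kinase family, had an interaction of 3.12 (SE 0.41, adjusted p = 1.88e-05). Another ID under that symbol had an interaction of 2.19 (adjusted p = 0.00152). In kcna7, cdh15, mylk4, myom1 and obscnb, loss of glo1 raised the gene by 1.35 to 2.21 in fish without aldh3a1. In fish with aldh3a1 it changed the gene by -1.72 to -1.25, and all these effects passed the test. The ranking picked these genes by the gap between those effects, so opposite directions are partly set by it.

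Most regulators of muscle and some heart genes were also called above the sum. Of 33 muscle regulators and synapse genes, 19 lay above the sum and 2 below it, with a median interaction of 0.61 and a median change of -0.32 in DKO, -0.15 in GLO1KO and -0.89 in ALDH3A1KO. Chrne encodes a subunit of the acetylcholine receptor at the nerve-muscle synapse. It averaged 21.9 ± 1.52 CPM in DKO, 24.3 ± 2.12 CPM in GLO1KO, 10.23 ± 0.893 CPM in ALDH3A1KO and 27.3 ± 4.13 CPM in WT (SD, n = 5 each), with an interaction of 1.26 (SE 0.13, adjusted p = 9.54e-07). Of 31 heart genes, 14 lay above the sum and 0 below it, with a median interaction of 0.60. Popdc2, a membrane protein of heart and skeletal muscle that binds cAMP in mammals, averaged 3.34 ± 0.920 CPM in DKO, 3.80 ± 0.750 CPM in GLO1KO, 1.25 ± 0.186 CPM in ALDH3A1KO and 6.15 ± 0.986 CPM in WT. Its interaction was 2.11 (SE 0.26, adjusted p = 4.76e-06).

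**Figure D3:**
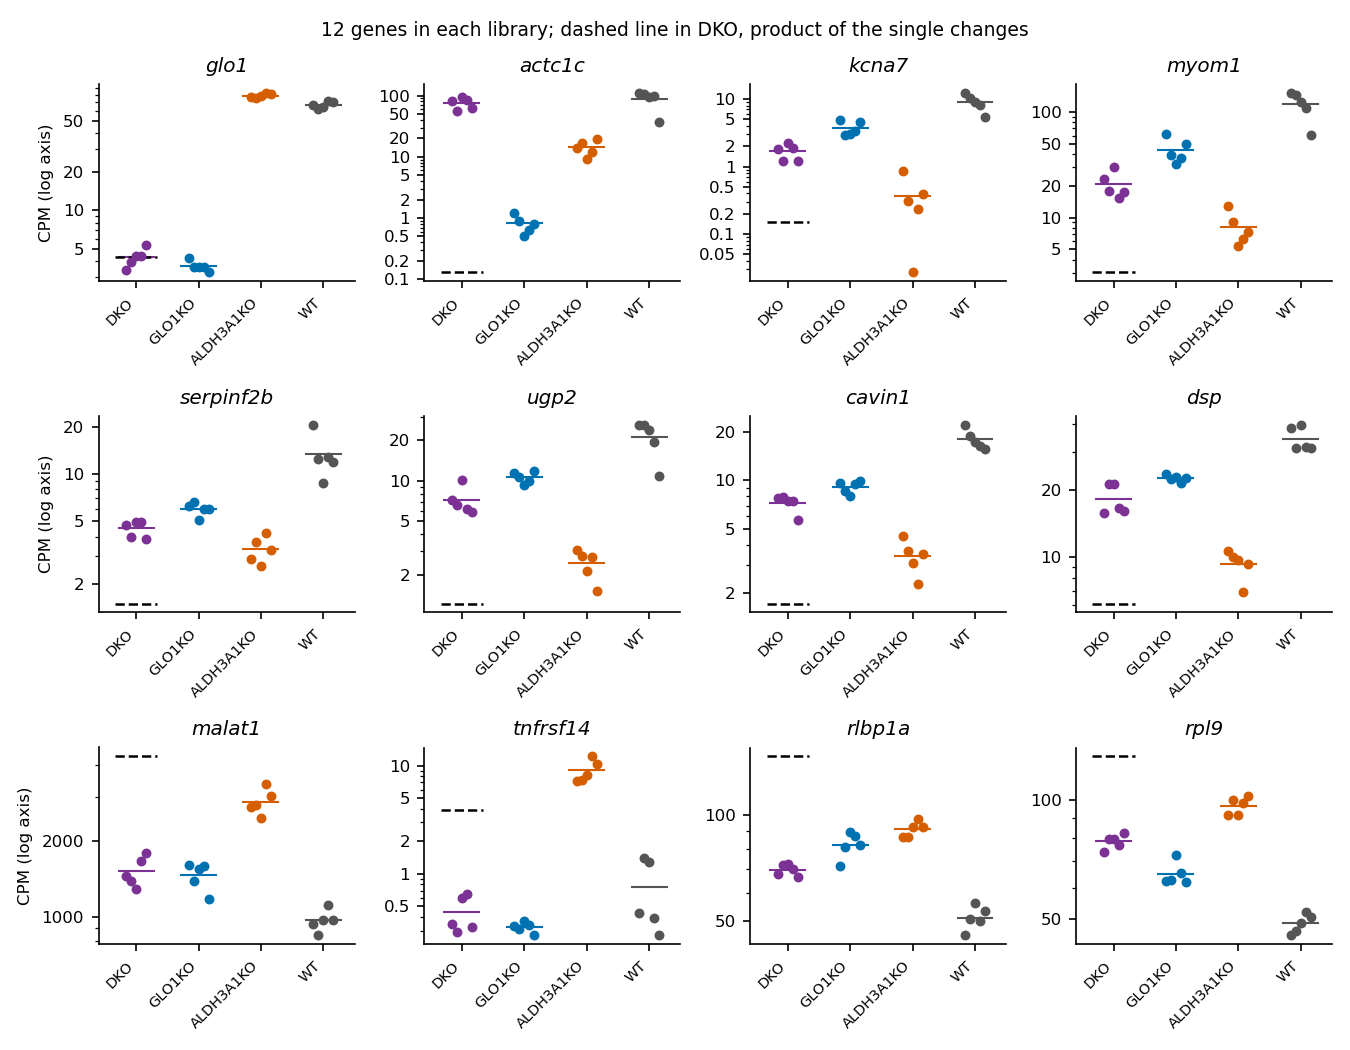
Scaled CPM (log axis) of 12 genes is shown for the 5 libraries of each genotype (points) with the group mean (line), and the dashed line over DKO is the level that the product of the single changes gives. Glo1 lies on that line, the muscle, liver, glycogen, notochord and skin genes lie above it (actc1c at 56.4 to 95.6 against 0.131 CPM), and malat1, tnfrsf14, rlbp1a and rpl9 lie below it.

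Most extracellular matrix genes were called above the sum, as were some of the notochord, kidney and blood genes. Of 70 extracellular matrix genes, 42 lay above the sum and 2 below it, with a median interaction of 0.38 and a median change of 0.01 in DKO, -0.08 in GLO1KO and -0.33 in ALDH3A1KO. Loss of glo1 raised 42 of these 70 genes and lowered 0 in fish without aldh3a1 (11.1% and 11.6% over all tested genes), against 6 raised and 17 lowered in fish with it (14.6% and 18.1%). Fn1 (ENSDARG00000006526), fibronectin, averaged 29.4 ± 4.73 CPM in DKO, 27.0 ± 1.81 CPM in GLO1KO, 19.97 ± 2.12 CPM in ALDH3A1KO and 47.3 ± 7.97 CPM in WT (SD, n = 5 each), with an interaction of 1.37 (SE 0.15, adjusted p = 3.11e-06). Of 28 notochord genes, 14 lay above the sum and 0 below it, with a median interaction of 0.47. Cavin1 (ENSDARG00000059362) encodes a coat protein of caveolae, the membrane pits abundant in the notochord. It had 7.74, 7.88, 7.48, 7.49 and 5.73 CPM in DKO, 9.70, 8.65, 7.98, 9.46 and 9.93 CPM in GLO1KO, 4.55, 3.65, 3.08, 2.27 and 3.51 CPM in ALDH3A1KO, and 22.1, 18.8, 17.3, 16.4 and 15.6 CPM in WT. The 4 genotypes did not overlap, and the interaction was 2.07 (SE 0.19, adjusted p = 1.13e-07).

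Of 46 kidney genes, a list of kidney tubule, duct and ionocyte genes, 20 lay above the sum and 2 below it, with a median interaction of 0.52. Their median change against WT was -0.335 in DKO, -0.34 in GLO1KO and -0.47 in ALDH3A1KO. In DKO 21 were lower and 4 higher than in WT (26.4% and 23.9% over all tested genes). Atp1a1a.2, an alpha subunit of the sodium pump, averaged 40.5 ± 4.31 CPM in DKO, 30.7 ± 3.31 CPM in GLO1KO, 26.8 ± 3.82 CPM in ALDH3A1KO and 35.5 ± 6.59 CPM in WT, with an interaction of 0.80 (SE 0.16, adjusted p = 0.00089). Unlike the list's median, it was not lower in DKO than in WT (log2 change 0.19, adjusted p = 0.174 in edgeR). Of 22 red blood cell genes, 8 lay above the sum and 1 below it, with a median interaction of 0.67, which was 0.22 over the genes with a mean of at least 1 CPM and 0.39 without WT replicate 2. Sptb, the beta spectrin of the red cell membrane skeleton, averaged 22.1 ± 2.73 CPM in DKO, 24.8 ± 3.12 CPM in GLO1KO, 14.7 ± 1.82 CPM in ALDH3A1KO and 40.02 ± 7.02 CPM in WT (SD, n = 5 each). Its interaction was 1.27 (SE 0.17, adjusted p = 1.62e-05). The median change of the blood list against WT was 0.26 in DKO, -0.025 in GLO1KO and -0.33 in ALDH3A1KO. In DKO 6 of the 22 were higher and 4 lower than in WT (23.9% and 26.4% over all tested genes). Sptb changed by -0.86 in DKO against WT, against the direction of the list's median. Of 47 leukocyte genes, 3 lay above and 2 below the sum (6.38% and 4.26%). Of 28 interferon response genes, 3 lay above and 2 below (10.7% and 7.14%). Both lists held smaller shares than all tested genes (18.7% and 16.9%). The leukocyte gene ncf1, a subunit of the NADPH oxidase, had an interaction of 1.04 (SE 0.27, adjusted p = 0.0049). The interferon factor irf1a had an interaction of 1.21 (SE 0.38, adjusted p = 0.0157).

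Skin genes had their highest median in the double knockout. Of 56 skin genes, 17 lay above the sum and 3 below it, with a median interaction of 0.22 and a median change of 0.26 in DKO, 0.02 in GLO1KO and -0.04 in ALDH3A1KO. By library the median of the list lay between 0.15 and 0.35 in DKO, between -0.13 and 0.14 in GLO1KO, between -0.08 and 0.14 in ALDH3A1KO and between -0.17 and 0.05 in WT. DKO did not overlap any other group. In DKO 27 of the 56 genes were higher and 11 lower than in WT (23.9% higher and 26.4% lower over all tested genes). Dsp (ENSDARG00000076673), desmoplakin, which anchors keratin at cell junctions, had 15.8, 21.5, 21.4, 16.7 and 16.2 CPM in DKO, 23.8, 22.4, 23.1, 21.6 and 22.7 CPM in GLO1KO, 10.6, 9.94, 9.64, 6.88 and 9.22 CPM in ALDH3A1KO, and 38.4, 31.1, 39.7, 31.5 and 31.1 CPM in WT. The groups did not overlap, with DKO between the single knockouts and below WT, against the direction of the list's median, and the interaction was 1.58 (SE 0.15, adjusted p = 2.30e-07).

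Several large departures were in genes that share a symbol with another ID. Ggact (ENSDARG00000038248), a gamma-glutamylamine cyclotransferase, had 6.35, 4.99, 7.93, 4.80 and 7.34 CPM in DKO, 2.56, 0, 0.142, 0 and 0 CPM in GLO1KO, 1.92, 2.27, 0.742, 0.408 and 2.16 CPM in ALDH3A1KO, and 1.68, 2.83, 3.64, 2.96 and 5.13 CPM in WT. GLO1KO replicate 1 was far above the other 4 GLO1KO libraries, and the interaction of 4.64 (SE 1.08, adjusted p = 0.00377) was 8.47 without it. The other ggact ID had an interaction of 4.92 (adjusted p = 0.000396). Ahsa1 (ENSDARG00000028664), an activator of the chaperone Hsp90, averaged 5.45 ± 0.950 CPM in DKO, 0.720 ± 0.215 CPM in GLO1KO, 1.97 ± 0.507 CPM in ALDH3A1KO and 5.22 ± 1.53 CPM in WT (SD, n = 5 each). Its interaction was 4.32 (SE 0.33, adjusted p = 1.36e-08). The other ahsa1 ID had 39.2 CPM in DKO, 40.1 CPM in GLO1KO, 46.5 CPM in ALDH3A1KO and 37.8 CPM in WT, with an interaction of -0.33.

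The IDs of scg5, a chaperone of a prohormone convertase in secretory cells, moved in opposite directions. The copy ENSDARG00000077045 averaged 7.86 ± 4.32 CPM in DKO, 1.12 ± 0.678 CPM in GLO1KO, 3.31 ± 0.566 CPM in ALDH3A1KO and 6.67 ± 1.43 CPM in WT, with an interaction of 3.81 (SE 0.47, adjusted p = 1.68e-05). The copy ENSDARG00000032126 averaged 9.88 ± 4.09 CPM in DKO, 15.96 ± 1.87 CPM in GLO1KO, 19 ± 4.60 CPM in ALDH3A1KO and 8.98 ± 2.196 CPM in WT, with an interaction of -1.77 (SE 0.32, adjusted p = 0.0005). Their summed mean was 17.7 CPM in DKO, 17.1 CPM in GLO1KO, 22.3 CPM in ALDH3A1KO and 15.7 CPM in WT. A shift of transcription between the copies and a shift in which copy the reads were assigned to cannot be told apart.

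Most genes of the cytosolic and mitochondrial ribosome rose in both single knockouts and lay below their sum in the double knockout. Of 81 cytosolic ribosomal protein genes, 70 lay below the sum and 1 above it, with a median interaction of -0.45. Their median change was 0.55 in DKO, 0.32 in GLO1KO and 0.67 in ALDH3A1KO, and the median sum was 0.98. In fish without aldh3a1, loss of glo1 raised 1 and lowered 17 of the 81 (11.1% and 11.6% over all tested genes). In fish with aldh3a1, it raised 73 and lowered 0 (14.6% and 18.1%). Loss of aldh3a1 raised 66 in fish without glo1 (4.52% over all tested genes) and 78 in fish with glo1 (29.4%). Rpl9, a protein of the large subunit, had 73.8, 79.8, 79.7, 76.8 and 82.7 CPM in DKO, 62.3, 62.5, 72.6, 65.4 and 61.9 CPM in GLO1KO, 91.5, 100.2, 91.5, 98.3 and 102 CPM in ALDH3A1KO, and 45.5, 46.7, 48.9, 52.2 and 50.5 CPM in WT. The 4 genotypes did not overlap, with DKO between the single knockouts, and the interaction was -0.71 (SE 0.08, adjusted p = 1.39e-06).

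Of 13 mitochondrially encoded genes, 11 lay below the sum and 0 above it, with a median interaction of -0.47, and of 75 mitochondrial ribosome genes, 44 lay below and 0 above, with a median of -0.32. Mt-co2, a subunit of cytochrome c oxidase, averaged 5016 ± 277 CPM in GLO1KO and 6279 ± 646 CPM in ALDH3A1KO, against 3755 ± 304 CPM in WT. In DKO it averaged 5669.6 ± 336 CPM where the product of the single changes is 8389.5 CPM, and the interaction was -0.57 (SE 0.10, adjusted p = 0.000128). Mrpl52, of the large mitochondrial subunit, had an interaction of -0.78 (SE 0.12, adjusted p = 5.58e-05). Nuclear genes of oxidative phosphorylation departed less, with 23 of 93 below the sum, 5 above it and a median of -0.05, which became 0.00 with library size as the only scaling. Among them, atp5mea, a small subunit of ATP synthase, had an interaction of -0.71 (SE 0.10, adjusted p = 1.33e-05). Of 72 genes of translation and ribosome biogenesis, 15 lay below the sum (20.8%, against 16.9% over all tested genes) and 0 above it. Eif1b, a factor of start codon choice, had an interaction of -0.57 (SE 0.08, adjusted p = 1.06e-05). Of 83 cell cycle genes, 21 lay below and 1 above, with a median of -0.17, and hmgb2b, a chromatin protein of dividing cells, had an interaction of -0.60 (SE 0.09, adjusted p = 2.74e-05).

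The eye lists differed from each other. Of 85 photoreceptor and retinal genes, 34 lay below the sum and 3 above it, with a median interaction of -0.33 and a median change of 0.28 in DKO, 0.32 in GLO1KO and 0.32 in ALDH3A1KO. In fish without aldh3a1, loss of glo1 raised 5 and lowered 6 of them (11.1% and 11.6% over all tested genes). In fish with aldh3a1, it raised 42 and lowered 2 (14.6% and 18.1%). Rlbp1a, a retinaldehyde-binding protein of the visual cycle, had 67.9, 72.04, 72.6, 70.13 and 66.7 CPM in DKO, 71.4, 80.7, 89.0, 87.2 and 82.1 CPM in GLO1KO, 86.3, 86.7, 92.0, 97.5 and 92.4 CPM in ALDH3A1KO, and 45.6, 50.6, 56.0, 50.1 and 53.4 CPM in WT. DKO lay above WT, below every ALDH3A1KO library and overlapped GLO1KO, and the interaction was -1.06 (SE 0.09, adjusted p = 1.95e-08). Parapinopsinb, an opsin found in the pineal organ of fish, had an interaction of -1.46 (SE 0.19, adjusted p = 8.76e-06) and averaged 9.36 ± 1.26 CPM in DKO, 6.89 ± 0.963 CPM in GLO1KO, 14.3 ± 2.29 CPM in ALDH3A1KO and 3.83 ± 0.714 CPM in WT (SD, n = 5 each).

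Lens genes stayed close to the sum. Of 62 lens genes, 8 lay below the sum and 2 above it (16.9% and 18.7% over all tested genes), with a median interaction of -0.09. Loss of glo1 raised 51 of the 62 in fish without aldh3a1 and 53 in fish with it (11.1% and 14.6% over all tested genes). These effects had medians of 0.87 and 1.08, and 0 genes were lowered in either background (11.6% and 18.1%). The median change was 0.95 in DKO, 1.08 in GLO1KO and 0.02 in ALDH3A1KO, each against WT. Crygm2d6, a crystallin of the gamma M2 family, averaged 154 ± 15.4 CPM in DKO, 299 ± 84.3 CPM in GLO1KO, 198 ± 57.6 CPM in ALDH3A1KO and 125 ± 27.9 CPM in WT, with an interaction of -1.62 (SE 0.32, adjusted p = 0.00118). Crygm2d17 had an interaction of -1.52 (SE 0.34, adjusted p = 0.00286). The gamma M2 crystallins are near-identical copies, so the counts of single members are uncertain.

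**Figure D4:**
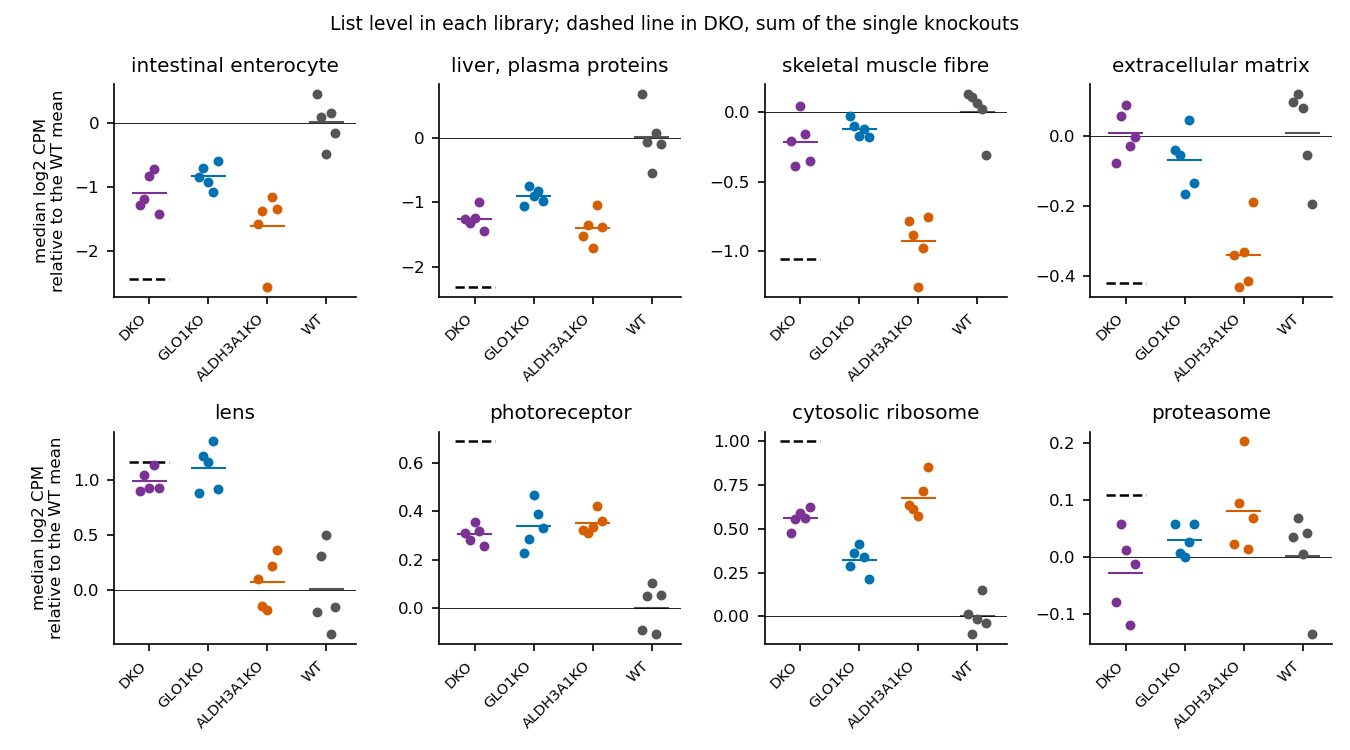
For 8 lists, each point is a library's median over the list of log2 CPM relative to the WT mean, lines are the means of the 5 libraries and the dashed line over DKO is the sum of the single knockouts. DKO lies above the dashed line for enterocyte, liver, muscle and matrix genes. It lies below the line for lens (range 0.90 to 1.14), photoreceptor, ribosome and proteasome genes.

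Neural and endocrine pancreas genes were called below the sum at more than the share over all tested genes, and above it nearer that share. Of 70 neural genes, 16 lay above and 23 below the sum (22.9% and 32.9%, against 18.7% and 16.9% over all tested genes). Their median interaction was -0.08 and the mean was 0.08. The median change of the neural list against WT was -0.31 in DKO, -0.21 in GLO1KO and -0.0006 in ALDH3A1KO. In DKO 38 of the 70 were lower and 8 higher than in WT (26.4% and 23.9% over all tested genes). Gap43, a protein of growing axons, averaged 221 ± 24.8 CPM in DKO, 205 ± 11.9 CPM in GLO1KO, 288 ± 22.4 CPM in ALDH3A1KO and 166 ± 12.2 CPM in WT (SD, n = 5 each), with an interaction of -0.69 (SE 0.10, adjusted p = 2.62e-05). It rose by 0.42 in DKO against WT, against the direction of the list's median. Of 31 glial genes, 9 lay above and 9 below (29% each). Among them, glul (ENSDARG00000099776), glutamine synthetase, had an interaction of -0.77 (SE 0.10, adjusted p = 1.33e-05). In the same list mag, a glycoprotein of myelin, lay above the sum, with 8.51 ± 1.24 CPM in DKO, 14.5 ± 1.37 CPM in GLO1KO, 6.61 ± 0.930 CPM in ALDH3A1KO and 24.4 ± 2.73 CPM in WT, and an interaction of 1.11 (SE 0.15, adjusted p = 1.57e-05). Of 27 endocrine pancreas genes, 7 lay above and 9 below (25.9% and 33.3%), with a median of 0.07 that became -0.04 without WT replicate 1. Insm1 (ENSDARG00000091756), a transcription factor of neuroendocrine cells and one of the 9 below the sum, had an interaction of -0.46 (SE 0.08, adjusted p = 0.00013). Of 30 pituitary and peptide hormone genes, 3 lay above and 5 below (10% and 16.7%, against 18.7% and 16.9% over all tested genes). Npy, neuropeptide Y, had an interaction of -1.06 (SE 0.17, adjusted p = 5.50e-05). Of 46 circadian clock genes, 2 lay above and 5 below (4.35% and 10.9%, both under the shares over all tested genes), with a median of -0.30. That median was -0.41 to -0.19 with a library left out. By library, the list's median log2 CPM against the WT mean lay between 0.13 and 0.35 in DKO and between 0.10 and 0.38 in GLO1KO. It lay between 0.05 and 0.47 in ALDH3A1KO and between -0.36 and 0.36 in WT. The nuclear receptor gene rorab had an interaction of -0.36 (SE 0.07, adjusted p = 0.000573), and clock (ENSDARG00000003631), a core transcription factor of the oscillator, had an interaction of 0.66 (SE 0.14, adjusted p = 0.00129). The nuclear noncoding RNA malat1 had 1451, 1387, 1294, 1665 and 1798 CPM in DKO, 1613, 1389, 1555, 1599 and 1178 CPM in GLO1KO, 2727, 2786, 2482, 3367 and 3018 CPM in ALDH3A1KO, and 939.8, 847, 977, 1118 and 972 CPM in WT. DKO and GLO1KO overlapped between WT and ALDH3A1KO, and its interaction was -1.52 (SE 0.14, adjusted p = 5.20e-07).

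Tnfrsf14 and cfp were among the 10 largest called departures below the sum at 5 CPM or more in the highest genotype, clone names excluded. Loss of aldh3a1 in fish with glo1 raised tnfrsf14 by 3.58 and cfp by 1.73. It also raised others of the 10, among them ctsb (2.26), parapinopsinb (1.90) and malat1 (1.57), while hsp70l (0.16) did not pass the test. Tnfrsf14, a member of the TNF receptor family, had 0.346, 0.288, 0.594, 0.656 and 0.322 CPM in DKO, 0.334, 0.309, 0.370, 0.336 and 0.274 CPM in GLO1KO, 7.27, 7.38, 8.21, 12.2 and 10.3 CPM in ALDH3A1KO, and 0.432, 1.41, 1.28, 0.390 and 0.273 CPM in WT. Every ALDH3A1KO library was above the other 3 groups, which overlapped, and the interaction was -3.14 (SE 0.55, adjusted p = 0.000232). Cfp, properdin, which stabilises the complement convertase, was likewise highest in ALDH3A1KO, with 2.73 ± 0.432 CPM in DKO, 2.66 ± 0.530 CPM in GLO1KO, 9.10 ± 1.26 CPM in ALDH3A1KO and 2.75 ± 0.711 CPM in WT. Its interaction was -1.69 (SE 0.24, adjusted p = 2.39e-05). Ctsb, the lysosomal protease cathepsin B, averaged 28.3 ± 5.66 CPM in DKO, 35.7 ± 11.1 CPM in GLO1KO, 43.9 ± 13.8 CPM in ALDH3A1KO and 9.19 ± 6.21 CPM in WT, with an interaction of -2.59 (SE 0.53, adjusted p = 0.00146). Ctsb rose in all 3 knockouts against WT, by 1.62 in DKO, 1.96 in GLO1KO and 2.26 in ALDH3A1KO on the log2 scale, where the product of the single changes is 170.4 CPM.

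The proteasome list departed little, and its calls leaned below the sum. Of 41 proteasome genes, 10 lay below the sum and 3 above it (24.4% and 7.32%, against 16.9% and 18.7% over all tested genes). Their median interaction was -0.13, with a median change of -0.02 in DKO, 0.03 in GLO1KO and 0.06 in ALDH3A1KO. Loss of glo1 lowered 9 and raised 0 of the 41 in fish without aldh3a1 (11.6% and 11.1% over all tested genes). In fish with aldh3a1, it lowered 3 and raised 3 (18.1% and 14.6%). In DKO 13 were lower and 6 higher than in WT, where 26.4% of all tested genes were lower and 23.9% higher, so the count of lower genes is near the background. Psma1, a subunit of the outer ring of the core particle, averaged 92.0 ± 3.65 CPM in DKO, 84.1 ± 3.01 CPM in GLO1KO, 107 ± 7.18 CPM in ALDH3A1KO and 73.8 ± 2.68 CPM in WT (SD, n = 5 each). Its interaction was -0.40 (SE 0.07, adjusted p = 0.000208). Psmd2 (ENSDARG00000103190), a scaffold subunit of the regulatory particle, had 12.2, 10.5, 11.8, 8.50 and 8.39 CPM in DKO, 18.3, 16.9, 17.8, 14.3 and 19.5 CPM in GLO1KO, 9.56, 10.8, 9.20, 7.78 and 7.66 CPM in ALDH3A1KO, and 38.1, 36.4, 30.5, 30.7 and 26.2 CPM in WT. DKO overlapped ALDH3A1KO and lay below GLO1KO and WT, and the interaction was 1.09 (SE 0.17, adjusted p = 7.04e-05). Psmd2 and the other genes given with an ID, glo1 apart, share their symbol with another ID, so their reads may be split between copies.

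Chaperone and ER stress genes were called below the sum at more than the share over all tested genes, and antioxidant genes above it. Of 57 chaperone genes, 11 lay above and 19 below the sum (19.3% and 33.3%, against 18.7% and 16.9% over all tested genes). Their median interaction was -0.11 and the mean was 0.02. The heat-inducible Hsp70 gene hsp70l had 2.48, 9.23, 5.08, 2.77 and 2.57 CPM in DKO, 18.98, 30.1, 12.2, 42.5 and 10.1 CPM in GLO1KO, 14.2, 4.71, 2.88, 7.29 and 14.4 CPM in ALDH3A1KO, and 5.08, 6.25, 8.45, 7.83 and 11.1 CPM in WT. Every GLO1KO library was above every DKO library, GLO1KO overlapped ALDH3A1KO and WT, and the interaction was -2.52 (SE 0.72, adjusted p = 0.0124). The related hsp70.1 averaged 4.15 ± 1.07 CPM in DKO, 5.31 ± 1.81 CPM in GLO1KO, 5.80 ± 2.86 CPM in ALDH3A1KO and 2.29 ± 0.726 CPM in WT, with an interaction of -1.69 (SE 0.46, adjusted p = 0.00832). The small heat shock protein gene hspb8 had an interaction of 1.02 (SE 0.15, adjusted p = 3.70e-05). Of 49 ER stress genes, 4 lay above and 12 below (8.16% and 24.5%). Among them, atf4b, a transcription factor of the stress response, had an interaction of -0.50 (SE 0.07, adjusted p = 1.84e-05). Of 61 antioxidant genes, 19 lay above and 6 below (31.1% and 9.84%), with a median of 0.20. Me1, malic enzyme, which makes NADPH, averaged 1.41 ± 0.341 CPM in DKO, 1.17 ± 0.550 CPM in GLO1KO, 1.01 ± 0.383 CPM in ALDH3A1KO and 4.62 ± 0.996 CPM in WT, with an interaction of 2.45 (SE 0.41, adjusted p = 0.000119). Gpx4, a glutathione peroxidase of lipid peroxides in the same list, had an interaction of -0.47 (SE 0.08, adjusted p = 0.000134).

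Of 39 genes of dicarbonyl and aldehyde removal, 16 lay above the sum and 2 below it, with a median interaction of 0.19. Their median change was -0.20 in DKO, -0.15 in GLO1KO and -0.33 in ALDH3A1KO, and in DKO 18 were lower and 2 higher than in WT (26.4% and 23.9% over all tested genes). Aldh4a1, a mitochondrial dehydrogenase of proline breakdown, averaged 18.8 ± 2.53 CPM in DKO, 22.03 ± 2.18 CPM in GLO1KO, 13.5 ± 1.58 CPM in ALDH3A1KO and 32.7 ± 2.35 CPM in WT (SD, n = 5 each), with an interaction of 1.05 (SE 0.13, adjusted p = 6.27e-06). Aldh18a1, which acts in proline synthesis, averaged 41.5 ± 1.33 CPM in DKO, 47.6 ± 1.33 CPM in GLO1KO, 42.5 ± 2.63 CPM in ALDH3A1KO and 38.8 ± 1.86 CPM in WT. Its interaction was -0.33 (SE 0.07, adjusted p = 0.00139). Aldh4a1 and aldh18a1 were named by their adjusted p-values and act in proline metabolism, so they do not stand for the removal of methylglyoxal.

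Most genes of gluconeogenesis and glycogen were called above the sum, while glycolysis genes were called on both sides of it. Of 49 genes of gluconeogenesis and glycogen, 27 lay above the sum and 3 below it (55.1% and 6.12%, against 18.7% and 16.9% over all tested genes). Their median interaction was 0.47, and it was 0.32 without WT replicate 1. Their median change was -0.40 in DKO, -0.19 in GLO1KO and -0.64 in ALDH3A1KO. Ugp2 (ENSDARG00000005578), which makes the UDP-glucose used for glycogen, had 7.16, 6.66, 10.1, 6.17 and 5.85 CPM in DKO, 11.5, 10.7, 9.38, 9.99 and 11.8 CPM in GLO1KO, 3.06, 2.78, 2.12, 2.71 and 1.501 CPM in ALDH3A1KO, and 26.1, 25.97, 23.8, 19.6 and 10.8 CPM in WT. DKO lay above ALDH3A1KO and below WT and overlapped GLO1KO, and the interaction was 2.55 (SE 0.30, adjusted p = 1.10e-05). Pygb, a glycogen phosphorylase, averaged 19.8 ± 1.23 CPM in DKO, 20.3 ± 1.29 CPM in GLO1KO, 14.3 ± 0.882 CPM in ALDH3A1KO and 28 ± 3.86 CPM in WT, with an interaction of 0.93 (SE 0.12, adjusted p = 5.24e-06). Of 49 glycolysis genes, 13 lay above and 11 below (26.5% and 22.4%), with a mean interaction of 0.22. Their median was 0.01, and it was -0.07 without WT replicate 2 and -0.06 without DKO replicate 2. Tpi1 (ENSDARG00000025012), triose phosphate isomerase, which handles the precursors of methylglyoxal, had an interaction of -0.44 (SE 0.08, adjusted p = 0.000145). Pdk4, a kinase that inhibits pyruvate dehydrogenase, had an interaction of 1.05 (SE 0.19, adjusted p = 0.000213).

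Of 61 genes of insulin signalling and glucose transport, 14 lay above and 8 below the sum, with a median interaction of 0.16. These shares were 23% and 13.1%, against 18.7% and 16.9% over all tested genes. The list's median change against WT was -0.04 in DKO, -0.07 in GLO1KO and -0.23 in ALDH3A1KO. In ALDH3A1KO 26 of the 61 were lower and 10 higher than in WT (32% and 29.4% over all tested genes). The glucose transporter gene slc2a3a averaged 94.5 ± 7.88 CPM in DKO, 102 ± 8.397 CPM in GLO1KO, 117 ± 4.80 CPM in ALDH3A1KO and 87.4 ± 6.51 CPM in WT, with an interaction of -0.54 (SE 0.09, adjusted p = 0.000121). It lay below the sum and rose by 0.42 in ALDH3A1KO, against the direction of the list's medians. Of 61 lipid metabolism genes, 24 lay above and 10 below, with a median of 0.21, and elovl6, a fatty acid elongase, had an interaction of -0.56 (SE 0.08, adjusted p = 4.27e-05), opposite to dgat2. Of 33 cholesterol synthesis genes, 6 lay above and 6 below (18.2% each), near the shares over all tested genes. Idi1, an isomerase of the sterol pathway, had an interaction of -0.49 (SE 0.09, adjusted p = 0.000383).

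Genes of the endothelium, the cells that the transgene marks, were called above the sum at a share near that of all tested genes. Of 81 endothelial genes, 16 lay above the sum (19.8%, against 18.7% over all tested genes) and 6 below it (7.41%, against 16.9%), with a median interaction of 0.17 and a median change of 0.01 in DKO, -0.07 in GLO1KO and -0.14 in ALDH3A1KO. Tal1, a transcription factor of blood and endothelial precursors, averaged 46.5 ± 3.68 CPM in DKO, 44.9 ± 3.40 CPM in GLO1KO, 53.0 ± 2.42 CPM in ALDH3A1KO and 35.6 ± 2.31 CPM in WT (SD, n = 5 each), with an interaction of -0.52 (SE 0.09, adjusted p = 0.000153). Mrc1, a mannose receptor of lymphatic and sinusoidal endothelium, averaged 2.78 ± 0.440 CPM in DKO, 2.61 ± 0.516 CPM in GLO1KO, 1.77 ± 0.349 CPM in ALDH3A1KO and 3.93 ± 0.592 CPM in WT. Its interaction was 1.25 (SE 0.24, adjusted p = 0.000364). Of 117 very long genes, taken as a sign of RNA length in the libraries, 18 lay above and 7 below the sum (15.4% and 5.98%). Their median interaction was 0.03. Against WT, 47 were lower and 11 higher in DKO (26.4% and 23.9% over all tested genes). In GLO1KO 32 were lower and 4 higher (18.1% and 14.6%), and in ALDH3A1KO 44 were lower and 23 higher (32% and 29.4%). Whether RNA length differed between the genotypes was not tested. Usp24, a deubiquitinase among them, had an interaction of 0.76 (SE 0.12, adjusted p = 4.25e-05).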

How the data were processed

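RNA-seq counts of 20 larva libraries were analysed. Per the labels' protocols, total RNA was extracted with RNeasy and made into strand-specific DNBSEQ mRNA libraries. The deposited values are raw counts per gene, and the submitters' processing notes name featureCounts 2.0.3 and build GRCz11, while the aligner and the strand setting of the counting are not given in the sources used here. Groups and columns were matched by title. Of 32520 gene IDs, 29201 had a symbol in the reference tables and 6314 of them shared a symbol.

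Genes passing filterByExpr (22234, with 99.97% of counts) were fitted with edgeR 4.0.16 in R 4.3.3 (TMM factors, robust quasi-likelihood, all 20 libraries, 1 coefficient per genotype), and each contrast was adjusted by Benjamini-Hochberg over all tested genes. CPM used TMM-scaled library sizes. SE is the log2 change divided by the root of F. The product of the single changes is the mean CPM of GLO1KO times that of ALDH3A1KO over that of WT. Scripts were tested on simulated data. Genes were named by rule: glo1, the 10 largest called interactions in each direction, and the smallest adjusted p-values within each list with 3 or more called members. The 10 largest were taken at 5 CPM or more in the highest genotype. Genes without a symbol, or with a clone name such as zgc: or si:, were left out of that ranking. That rule gave 92 genes, shortened in the text after their values were seen, and an item among them is not reported here. The 38 lists, the genes and the tests were chosen with earlier results of these data known. Alternatives were DESeq2 1.42.0, limma 3.58.1 voom, other scalings and filters, a minimum fold of 1.2, a replicate block and leaving out each library.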

Additional observations from a re-analysis of the deposited data

Results flagged for a closer look

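A library stood apart from the other 4 of its group, by Dixon's ratio of gap to range above 0.71, in 23 of 392 groups of libraries examined, where chance gives about 20. WT replicate 5 was the low library in WT for actc1c (36.6 CPM), ahsa1 (2.58 CPM) and sptb (27.9 CPM), and for the medians of the chaperone list (-0.058) and the skeletal muscle list (-0.31), on the log2 scale against the WT mean. GLO1KO replicate 1 was high for ggact (2.56 CPM), mylk4 (4.17 CPM) and the median of the translation and ribosome biogenesis list (0.34). For scg5, DKO replicate 4 had 15.4 CPM and GLO1KO replicate 4 had 2.32 CPM of the copy ENSDARG00000077045, and DKO replicate 3 had 16.8 CPM of the copy ENSDARG00000032126. DKO replicate 3 also stood apart for pygb (21.9 CPM) and for the medians of the muscle regulator list (-0.17) and the neural list (-0.51), and DKO replicate 5 for cavin1 (5.73 CPM). ALDH3A1KO replicate 1 was high for cdh15 (0.707 CPM), and ALDH3A1KO replicate 3 was low for the dicarbonyl list (-0.46) and the interferon list (-0.43). GLO1KO replicate 3 stood apart for popdc2 (2.48 CPM) and the oxidative phosphorylation list (0.18), and GLO1KO replicate 5 for the cholesterol list (0.082). WT replicate 4 was high for npy (8.06 CPM), and WT replicate 2 was low for the skin list (-0.17).

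By the interaction test, the effect of a loss differed with the other gene's state in 7905 genes. In 10 named genes it also turned its direction, with both effects called and each at least 1 on the log2 scale. Most of these genes were named for the size of their interaction, so opposite directions are partly set by that ranking. The number over all tested genes at this size was not counted. With aldh3a1 lost and kept, loss of glo1 changed actc1c by 2.41 and -6.76 (interaction 9.17), ggact by 2.06 and -2.58 (interaction 4.64), ahsa1 by 1.47 and -2.85 (interaction 4.32) and the scg5 copy ENSDARG00000077045 by 1.24 and -2.57 (interaction 3.81). It changed kcna7 by 2.21 and -1.25 (interaction 3.46), cdh15 by 1.89 and -1.34 (interaction 3.23), mylk4 by 1.40 and -1.72 (interaction 3.12) and dgat2 by 1.05 and -1.74 (interaction 2.79). It changed myom1 by 1.35 and -1.42 (interaction 2.77) and obscnb by 1.42 and -1.33 (interaction 2.76). With glo1 lost and kept, loss of aldh3a1 changed actc1c by 6.54 and -2.63, ahsa1 by 2.91 and -1.40 and that scg5 copy by 2.80 and -1.01.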

How the results depend on the processing

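The 7905 calls of the interaction were 6926 to 8417 when each library was left out in turn, and 7295 to 8456 under other scalings, filters and tools, with 0 changing sign. DESeq2 gave 8456 and limma-voom 8173. The share above the sum was 52.6%, against 60.1% with upper quartile factors and 62.4% with library size only. A minimum change of 1.2-fold left 3877 calls, 2521 above and 1356 below the sum. It left 1145 genes for glo1 loss without aldh3a1, 2502 for glo1 loss with aldh3a1, 340 for aldh3a1 loss without glo1, 9021 for aldh3a1 loss with glo1 and 6269 for DKO against WT, since a higher bar is tested. Of the named genes called for the interaction, 91 kept their call with any library left out, and 85 under every alternative in which they were tested (pla2g1b, irf1a, tap1 and wt1 were not tested with the mean of at least 1 CPM). The 6 others missed the threshold with the 1.2-fold minimum, among them psma1 (adjusted p = 0.0521 in edgeR), rorab (0.124) and aldh18a1 (0.209). Replicate numbers did not pair the libraries (r of -0.163 to 0.253 over 30 same-number pairs, 6 of 20 libraries closest to their own number), and the fit with a replicate block gave 7820 calls, of which 7568 were shared.

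The count for aldh3a1 loss without glo1 ranged from 1302 to 2854 with a library left out. Median interactions then ranged from -0.0352 to 0.0944 for endocrine, 0.116 to 0.201 for endothelial, 0.386 to 0.753 for blood, -0.0655 to 0.0744 for glycolysis and 0.321 to 0.522 for gluconeogenesis genes. Upper quartile factors gave 0.213 for endothelial and 0.206 for insulin genes. Library size only gave 0.213 for endothelial, -0.0876 for ER stress and 0.209 for insulin genes. A mean of at least 1 CPM gave 0.222 for blood. The mean in place of the median gave 0.756 for muscle regulators, 0.718 for heart, 0.0764 for neural, 0.326 for skin, 0.495 for matrix, 0.213 for endothelial, 0.667 for kidney, 0.581 for notochord, 0.0218 for chaperone, 0.276 for antioxidant, 0.220 for glycolysis, 0.578 for gluconeogenesis, 0.285 for insulin, 0.352 for lipid and 0.152 for very long genes. The cause of these shifts was not tested. Genes under about 1 CPM, such as pla2g1b and dgat2, rest on few counts.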
